A study of Mus musculus with 4 samples.

Results

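The genes described here encode the proteasome, its activators and its assembly factors, as measured in mouse blastocysts. They were taken as all genes on the array with a probe set annotated to that gene alone and with a symbol beginning Psma, Psmb, Psmc, Psmd, Psme or Psmg followed by a digit. Each gene was read from 1 probe set (the group of short probes that measures a transcript), the brightest on average over the arrays. This gave 48 genes out of 18194 with such a probe set. By role, 19 encode the core particle, 17 the regulatory particle and 10 an activator or assembly factor. The remaining 2, Psmc3ip and Psme3ip1, fit the naming pattern but encode partners of other proteins, and they were kept out of the class values.

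The series compared day 4 blastocysts (96 hours) of parthenogenetic origin, grown from oocytes without a sperm, with blastocysts from fertilized oocytes. Each origin was represented by diploid embryos and by tetraploid embryos, the latter produced by fusing embryos. RNA from 1 pool of 30 embryos went onto 1 Affymetrix array for each of the 4 conditions, after an amplification protocol with a pair of cycles. The design text treats tetraploid embryos as a pseudoreplicate of the diploid ones. No strain, activation method or embryo sex is given in the labels, and no condition had a repeat of its own. The arrays of an origin therefore differ by ploidy, pool and array together. The p-values by origin rest on that spread, and those by ploidy on the spread left after origin. In both, the fit combined the spread of a probe set with that of other probe sets of similar signal. No p-value measures the spread between repeats of a condition.

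Signals are MAS5 intensities on an arbitrary linear scale and were compared as log2(signal + 10), array against array for the same probe set only. A floor for each array was taken as the 95th percentile of 27 bacterial control probe sets, and the 4 floors lay between 99.7 and 150.3. The control gene Actb has probe sets along its length, and its 3' signal divided by its middle signal was 9.28 on the parthenogenetic tetraploid array and 5.13 to 7.55 on the other 3. For Gapdh that quotient was 5.22 on that array and 3.72 to 4.08 on the others. Markers of the blastocyst were present: 7 of 7 trophectoderm markers, 5 of 5 epiblast markers and 4 of 5 primitive endoderm markers lay above the floor on all 4 arrays. Of 7 oocyte, 7 cumulus and 6 fibroblast markers 0 did so, and of 5 leukocyte markers 1 did.

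The proteasome is the main protease of the cytosol and nucleus and breaks down proteins marked with ubiquitin. Its core is a barrel of stacked rings: outer rings of alpha subunits gate the entrance, and inner rings of beta subunits hold the cutting sites. The regulatory particle caps the barrel, binds ubiquitin, removes it and feeds the unfolded protein inward with a ring of ATPases. Dedicated chaperones build the core and the base of the cap, and alternative activators can take the place of the cap. In early mammalian embryos proteasomes clear maternal proteins as the embryonic genome takes over.

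Nearly all members gave clear signals in the blastocyst. Above the floor on all 4 arrays were 43 of the 48, among them all 31 genes of the standard particle (the alpha ring without Psma8, the beta ring and the regulatory particle). The genes that stayed near or below the floor were the inducible and thymic beta subunits, and the assembly chaperone gene Psmg4 was below it on the parthenogenetic tetraploid array only. Of the 48 members, 44 reached the array median on at least 2 arrays, the condition for testing. All 44 reached it on at least 3 arrays, so none entered through the arrays of 1 origin alone.

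**Figure D1:**
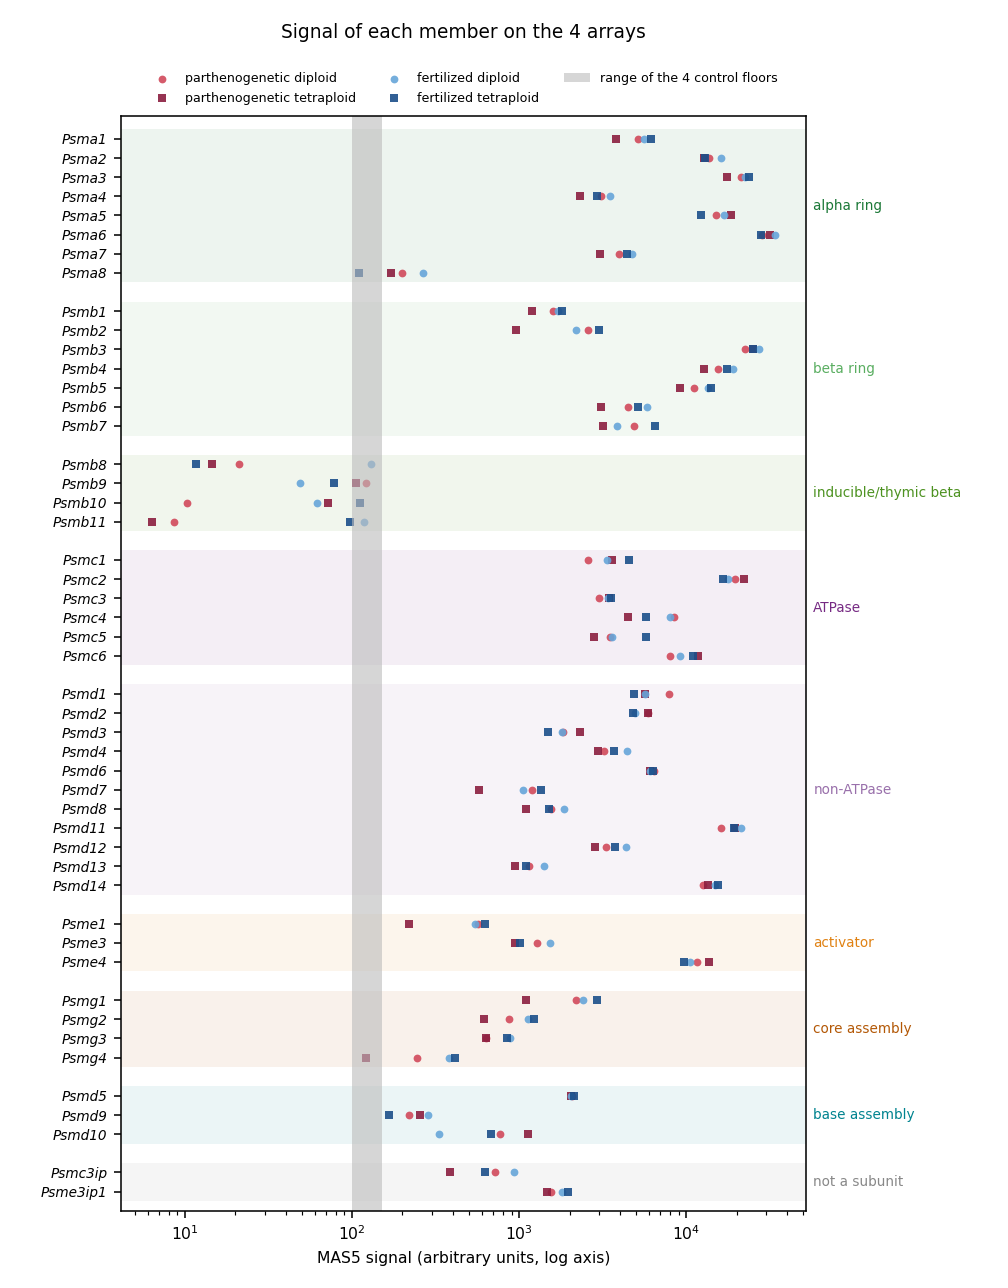
MAS5 signal (arbitrary units, log axis) of each of the 48 members on the 4 arrays, grouped by role, with the range of the 4 control floors in grey. The signals of most members lie close together and far right of the floor, while the inducible and thymic beta subunits lie at or left of it; levels of different genes are not comparable, since each has its own probes.

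At the brightest probe set of each gene, parthenogenetic blastocysts had somewhat lower signals for most proteasome genes than fertilized blastocysts. None of the differences passed the adjusted test. The dimmer probe sets of the members did not repeat this evenly: of 39 tested, only 21 had the same sign by origin as the brighter one. The median log2 difference (parthenogenetic minus fertilized) was -0.29 over the 48 members, with 37 lower and 11 higher. Over the 44 tested members it was -0.26, with 34 lower (77.3%), against a median of 0.02 and 48.5% lower among the 11341 genes tested. Among the 6700 genes that passed a filter at the 75th percentile of signal, the median was -0.05 and 54.6% were lower. By limma with Benjamini-Hochberg adjustment, 0 of the 44 members passed 0.05, where 0.173% of the 23746 probe sets tested did. At an unadjusted p under 0.05 there were 3 members (Psmg4, Psmd10 and Psmg1) and 2103 probe sets (8.86%). The lowest adjusted p of a member was 0.542. An exact permutation test of 2 arrays against 2 cannot give a two-sided p below 0.333. In 16 of the 44 (36.4%), both parthenogenetic signals lay below both fertilized ones, a pattern seen in 19.5% of genes tested. Both lay above in 5 (11.4%), against 22.3% of genes tested. Without the parthenogenetic tetraploid array, the median over the 48 members was -0.11, and without the parthenogenetic diploid array it was -0.39, with 2 members called (Psmb2 and Psmg1) among 715 probe sets called. In pooled embryos fewer cells of a type and less RNA per cell cannot be told apart.

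**Figure D2:**
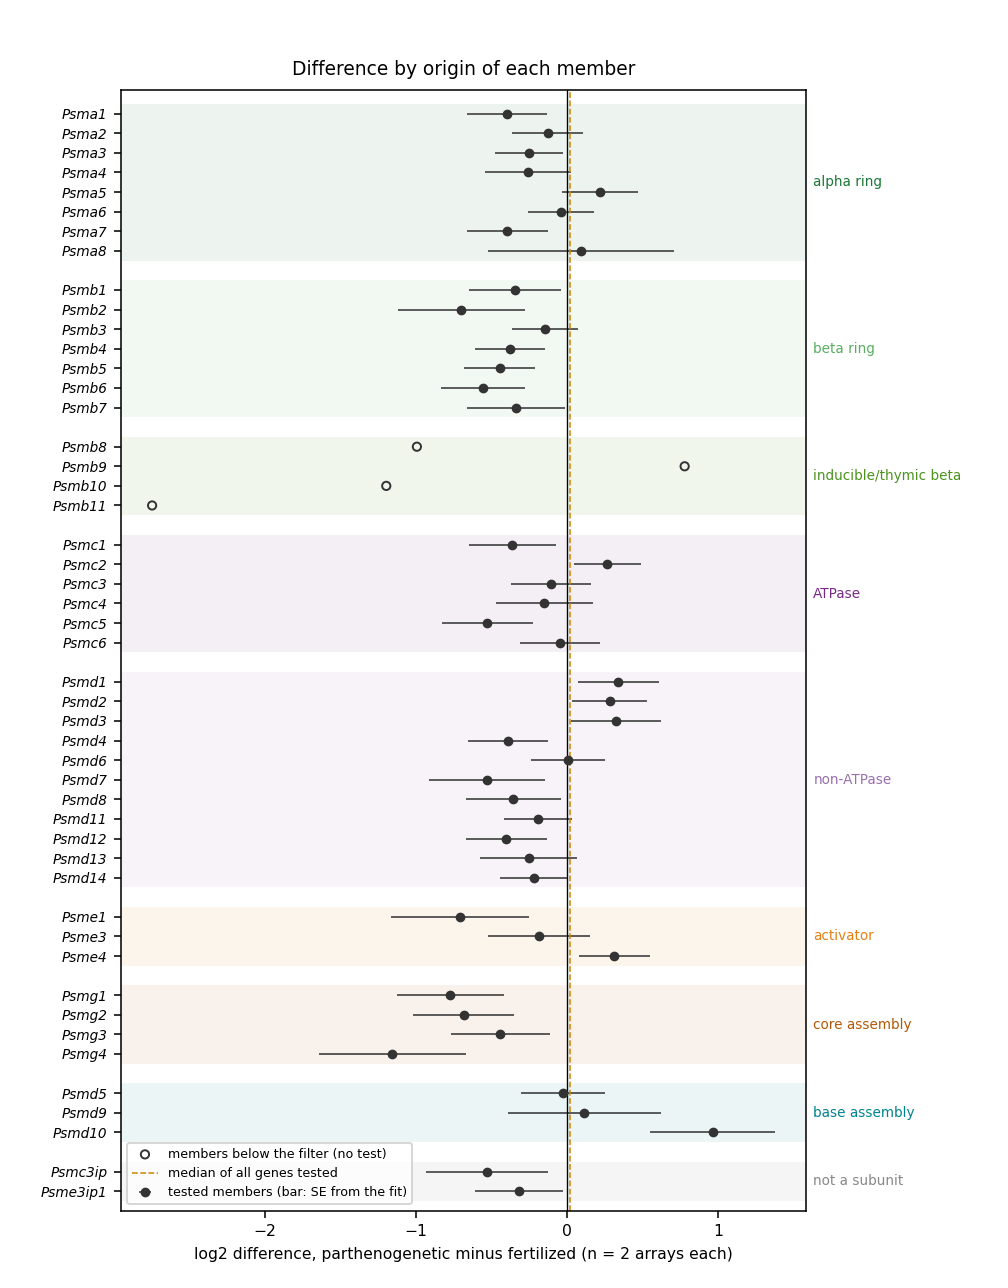
Log2 difference by origin (x axis, parthenogenetic minus fertilized, 2 arrays each) of each member by role, with the standard error of the fit as a bar and open circles for the 4 members not tested, whose signals lay near or below the floors. Most points lie left of 0 and of the dashed median of all genes tested at 0.02, with Psmg4 at -1.15 the lowest tested member and Psmd10 at 0.97 the highest.

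In the core particle, the median difference by origin was -0.34 over 19 genes, and -0.34 again over the 15 genes without the inducible and thymic subunits, of which 13 were lower. With an array left out the median of the 19 ranged from -0.51, without the parthenogenetic diploid array, to -0.14, without the parthenogenetic tetraploid array. The 7 genes of the standard beta ring were all lower, with a median of -0.37 and a range of -0.70 to -0.15, while between the diploid arrays alone 5 of the 7 were lower and between the tetraploid arrays 6 of 7. In the 8 alpha ring genes, which form the gate, the median was -0.19, with 6 lower and a range of -0.40 to 0.22. None of the 15 was called.

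Psmb5, which encodes the subunit with chymotrypsin-like activity and is the target of proteasome inhibitor drugs, had signals of 11120.0 and 9106 in parthenogenetic embryos, and 13447 and 13952 in fertilized ones (diploid first, as in all such lists). Both parthenogenetic arrays were lower than both fertilized arrays, without overlap. The difference was -0.44 ± 0.24 (SE), adjusted p 0.604. Psmb6, the subunit with caspase-like activity, had signals of 4468 and 3094 in parthenogenetic embryos, and 5789 and 5152 in fertilized ones. Its groups did not overlap either, and the parthenogenetic tetraploid array was the lowest. The difference was -0.55 ± 0.28 (SE), adjusted p 0.598. Psmb7, the subunit with trypsin-like activity, had signals of 4886 and 3192 in parthenogenetic embryos, and 3828 and 6496 in fertilized ones. Here the groups overlapped, because the parthenogenetic diploid array was above the fertilized diploid array. The difference was -0.34 ± 0.32 (SE), adjusted p 0.760, and 0.04 without the fertilized tetraploid array.

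Psmb2, a beta ring subunit without a cutting site, is described because its values stood out once seen. It had signals of 2578 and 952 in parthenogenetic embryos, and 2174 and 2992 in fertilized ones. The parthenogenetic tetraploid array alone was low, and the other 3 lay within a narrow range. The difference by origin was -0.70 ± 0.42 (SE), adjusted p 0.636. Without the parthenogenetic diploid array it was -1.41 with a limma adjusted p of 0.0254, and without the parthenogenetic tetraploid array it was 0.02 with an adjusted p of 0.991. The call therefore rests on 1 array. The other 3 beta ring genes, Psmb1, Psmb3 and Psmb4, had differences of -0.34, -0.15 and -0.37. Psmb1 and Psmb4 were without overlap between origins, while Psmb3 overlapped.

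In the alpha ring, Psma1, Psma3 and Psma7 had both parthenogenetic signals below both fertilized ones, with differences of -0.40, -0.25 and -0.39. Psma5 had signals of 15003 and 18455 in parthenogenetic embryos, and 16707 and 12229 in fertilized ones, and its difference of 0.22 ± 0.25 (SE), adjusted p 0.806 was the highest of the ring. Its parthenogenetic values lay between the fertilized ones or above them, with no common direction. Psma8, the alpha subunit of the testis proteasome, was dim, with signals of 199.9 and 170.4 in parthenogenetic embryos, and 267 and 110.1 in fertilized ones. The fertilized arrays held both its highest and its lowest value. The difference by origin was 0.09 ± 0.62 (SE), adjusted p 0.970, and its sign changed when arrays were scaled to a common median (-0.21) or quantile normalized (-0.18). The common median moves all genes alike, with their median going from 0.02 to -0.30.

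The inducible beta subunits replace the standard cutting subunits in immune cells and after interferon. Psmb8, the inducible counterpart of Psmb5, had signals of 21.1 and 14.5 in parthenogenetic embryos, and 129.8 and 11.6 in fertilized ones, all below the floors. Psmb9, the counterpart of Psmb6, had signals of 121 and 105 in parthenogenetic embryos, and 48.5 and 77.6 in fertilized ones, above the floor on the parthenogenetic diploid array only. Psmb10, the counterpart of Psmb7, had signals of 10.2 and 72.2 in parthenogenetic embryos, and 61.6 and 112 in fertilized ones, above the floor on the fertilized tetraploid array only. None of the 3 was therefore well measured in any condition. Psmb11, the beta subunit of thymic cortical epithelium, had signals of 8.62 and 6.36 in parthenogenetic embryos, and 117 and 97.5 in fertilized ones, again all below the floors. These 4 genes were not tested, and no direction is read from their signals. They are nevertheless counted in the values given over all 48 members and over the 19 core genes.

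In the regulatory particle, the median difference by origin was -0.19 over 17 genes, with 12 lower and 5 higher, and 0 were called by limma or passed an unadjusted p of 0.05. In the 6 ATPase genes the median was -0.13 (range -0.53 to 0.27) and in the 11 non-ATPase genes -0.22 (range -0.53 to 0.34). Without the parthenogenetic tetraploid array the median of the 17 genes was -0.12. Whether the classes differ from each other was not tested.

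Among the ATPases, Psmc5 was the lowest by origin, with signals of 3515 and 2791 in parthenogenetic embryos, and 3581 and 5702 in fertilized ones. The fertilized tetraploid array was high and the other 3 lay closer together, and the origins did not overlap. The difference was -0.53 ± 0.30 (SE), adjusted p 0.620. At the brightest probe sets, Psmc2 was the only ATPase gene with a higher value. Its signals were 19514 and 22041 in parthenogenetic embryos, and 17762 and 16669.9 in fertilized ones. Both parthenogenetic arrays were above both fertilized ones, with a difference of 0.27 ± 0.22 (SE), adjusted p 0.725, and -0.05 with scaling to a common median, which moved all genes as described for Psma8. The other ATPase genes had differences of -0.36 for Psmc1, -0.11 for Psmc3, -0.15 for Psmc4 and -0.05 for Psmc6. These signs depended on the probe set. Dimmer tested probe sets gave 0.14 and -0.18 for Psmc2, both with overlapping origins. They gave 0.82 and 0.16 for Psmc6, 1.66 for Psmc1 and -0.23 for Psmc4.

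Among the non-ATPase subunits, Psmd4 encodes a ubiquitin receptor of the cap. It had signals of 3219 and 2968 in parthenogenetic embryos, and 4426 and 3707 in fertilized ones. Both parthenogenetic arrays were lower than both fertilized arrays, with a difference of -0.39 ± 0.27 (SE), adjusted p 0.674. Psmd14, the deubiquitinase that removes ubiquitin chains from substrates, had signals of 12505 and 13543 in parthenogenetic embryos, and 14926 and 15357 in fertilized ones. Its groups were also separate, with a difference of -0.22 ± 0.23 (SE), adjusted p 0.780. Psmd12, a scaffold subunit of the lid, was the third non-ATPase gene without overlap on the lower side (-0.40).

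The large scaffold subunits of the base went the other way in sign. Psmd1 had signals of 7862 and 5647 in parthenogenetic embryos, and 5651 and 4890.0 in fertilized ones, with a difference of 0.34 ± 0.27 (SE), adjusted p 0.711, the highest of the regulatory particle. The parthenogenetic tetraploid array was slightly below the fertilized diploid array, so the origins overlapped. Psmd2, which also takes part in ubiquitin recognition, had signals of 5932 and 5867 in parthenogenetic embryos, and 4926 and 4761 in fertilized ones. Its origins did not overlap, and its difference of 0.28 ± 0.25 (SE), adjusted p 0.737 was -0.04 with the common median, a shift shared by all genes. Psmd3, a lid subunit, had signals of 1837 and 2296 in parthenogenetic embryos, and 1812 and 1483 in fertilized ones, higher in parthenogenetic embryos without overlap (0.32 ± 0.30 (SE), adjusted p 0.749).

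Psmd7, a lid subunit that pairs with Psmd14, had the lowest difference of the regulatory particle. Its signals were 1184 and 575 in parthenogenetic embryos, and 1055 and 1356 in fertilized ones. As for Psmb2, the parthenogenetic tetraploid array was low and the parthenogenetic diploid array was not. The difference was -0.53 ± 0.39 (SE), adjusted p 0.688, and -0.014 without the parthenogenetic tetraploid array. Psmd6, another lid subunit, was nearly flat at its brightest probe set, with a ratio of highest to lowest array of 1.05. Its signals there were 6376 and 6069.8 in parthenogenetic embryos, and 6061 and 6310.4 in fertilized ones. A dimmer probe set of Psmd6 was less flat, at 5112 and 3479 in parthenogenetic embryos, and 3830 and 3702 in fertilized ones.

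Among the groups of tested members, the core assembly chaperones had the lowest median by origin. Psmg1 and Psmg2 encode a heterodimer that assembles the alpha ring, and Psmg3 and Psmg4 encode another that acts with it. All 4 genes had both parthenogenetic signals below both fertilized ones, as 19.5% of genes tested did, and their median difference was -0.73. Between the diploid arrays the median was -0.42, and between the tetraploid arrays -1.20.

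Psmg1 had signals of 2192 and 1094 in parthenogenetic embryos, and 2410.1 and 2916 in fertilized ones. The parthenogenetic tetraploid array was low and the parthenogenetic diploid array was close to the fertilized diploid one. The difference was -0.77 ± 0.35 (SE), adjusted p 0.564. Without the parthenogenetic diploid array it was -1.27 with an adjusted p of 0.0406, and without the parthenogenetic tetraploid array it was -0.27 with an adjusted p of 0.865. Under the alternatives that kept the diploid array the adjusted p was 0.377 to 0.886. Psmg2 had signals of 873 and 614 in parthenogenetic embryos, and 1136 and 1228 in fertilized ones, lower on both parthenogenetic arrays, with a difference of -0.68 ± 0.33 (SE), adjusted p 0.588. Psmg3 had signals of 634 and 629 in parthenogenetic embryos, and 875 and 846 in fertilized ones, with the arrays of each origin close together. Its difference was -0.44 ± 0.33 (SE), adjusted p 0.695. Psmg4 had signals of 243 and 121 in parthenogenetic embryos, and 377 and 415 in fertilized ones, of which the parthenogenetic tetraploid value was below the floor of its array at 150.3. The difference was -1.15 ± 0.49 (SE), adjusted p 0.542, the lowest adjusted p of all members.

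Further probe sets do not all repeat these signs. A dimmer probe set of Psmg3 read 315 and 265 in parthenogenetic embryos, and 125 and 76.0 in fertilized ones, higher in parthenogenetic embryos, with both fertilized signals below the floors of their arrays. A second tested probe set of Psmg2 gave -0.23, with overlapping origins. Over all members, 51 dimmer probe sets were present and 39 were tested, of which 21 had the same sign by origin as the brighter one and 0 were called in either fit by limma.

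The base assembly chaperones, which help build the ATPase ring, had a median difference of 0.12 over 3 genes. Psmd10 encodes gankyrin, also known as an oncoprotein, and it is the only X-linked member. It had signals of 772 and 1132 in parthenogenetic embryos, and 329 and 680.1 in fertilized ones. Within each ploidy the parthenogenetic array was higher, and the fertilized diploid array was the lowest. The difference was 0.97 ± 0.41 (SE), adjusted p 0.554. The 391 X-linked genes tested had a median difference of 0.75 and 360 of them were higher. Psmd5 was nearly identical on the 4 arrays, at 2057 and 2049.9 in parthenogenetic embryos, and 2047 and 2131 in fertilized ones, a ratio of highest to lowest of 1.04. Psmd9 was dim, with 220.2 and 255 in parthenogenetic embryos, and 286 and 165 in fertilized ones and a difference of 0.12 ± 0.50 (SE), adjusted p 0.958.

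Of the activators, Psme1 encodes PA28 alpha, part of the interferon-responsive ring that opens the core without ATP. It had signals of 566 and 220.4 in parthenogenetic embryos, and 546 and 624 in fertilized ones. The parthenogenetic tetraploid array alone was low. The difference was -0.70 ± 0.46 (SE), adjusted p 0.658, and -0.04 without that array. Psme3, the nuclear activator PA28 gamma, had signals of 1269 and 947 in parthenogenetic embryos, and 1533 and 1016 in fertilized ones, with overlapping origins and a difference of -0.19 ± 0.34 (SE), adjusted p 0.889. Psme4, the large activator PA200, had signals of 11620.1 and 13607 in parthenogenetic embryos, and 10557 and 9671 in fertilized ones. Both parthenogenetic arrays were above both fertilized ones, with a difference of 0.32 ± 0.23 (SE), adjusted p 0.694, and -0.01 with the common median, again by the shift that all genes took.

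The 2 members that are not subunits also had lower parthenogenetic values. Psmc3ip, a cofactor of meiotic recombination, had signals of 721 and 383 in parthenogenetic embryos, and 937 and 622 in fertilized ones and a difference of -0.53 ± 0.40 (SE), adjusted p 0.703. Psme3ip1, which binds PA28 gamma, had signals of 1542 and 1462 in parthenogenetic embryos, and 1798 and 1950.0 in fertilized ones and a difference of -0.32 ± 0.29 (SE), adjusted p 0.748. Only Psme3ip1 was without overlap between origins.

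The comparison inside each ploidy, with 1 array a side and no test, showed where the differences by origin were large. Between the diploid arrays the median over the 44 tested members was -0.21, and 1 member, Psmd10 (1.21), differed at least 2-fold, against 18% of genes tested. Between the tetraploid arrays the median was -0.33, and 7 members were at least 2-fold lower in parthenogenetic embryos (15.9%), against 10% of genes tested. These were Psmb2 (3.12-fold), Psmb7 (2.03-fold), Psmc5 (2.04-fold), Psmd7 (2.33-fold), Psme1 (2.75-fold), Psmg1 (2.65-fold) and Psmg4, the last of which was at least 2.65-fold lower with the floor in place of its parthenogenetic signal. At least 2-fold higher were 0 members, against 14.7% of genes tested. The filter at the 75th percentile of signal was passed by 41 of the 44 members and by 6700 genes. Of those 6700 genes, 499 were at least 2-fold lower between the tetraploid arrays and 349 higher. Between the diploid arrays 230 of them were at least 2-fold lower and 297 higher. By class the median between diploid and between tetraploid arrays was -0.23 and -0.45 for the 15 tested core genes, and -0.17 and -0.18 for the 17 regulatory genes. In 14 of the 44 tested members (31.8%) the sign was opposite in the 2 ploidies, against 41.6% of genes tested.

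**Figure D3:**
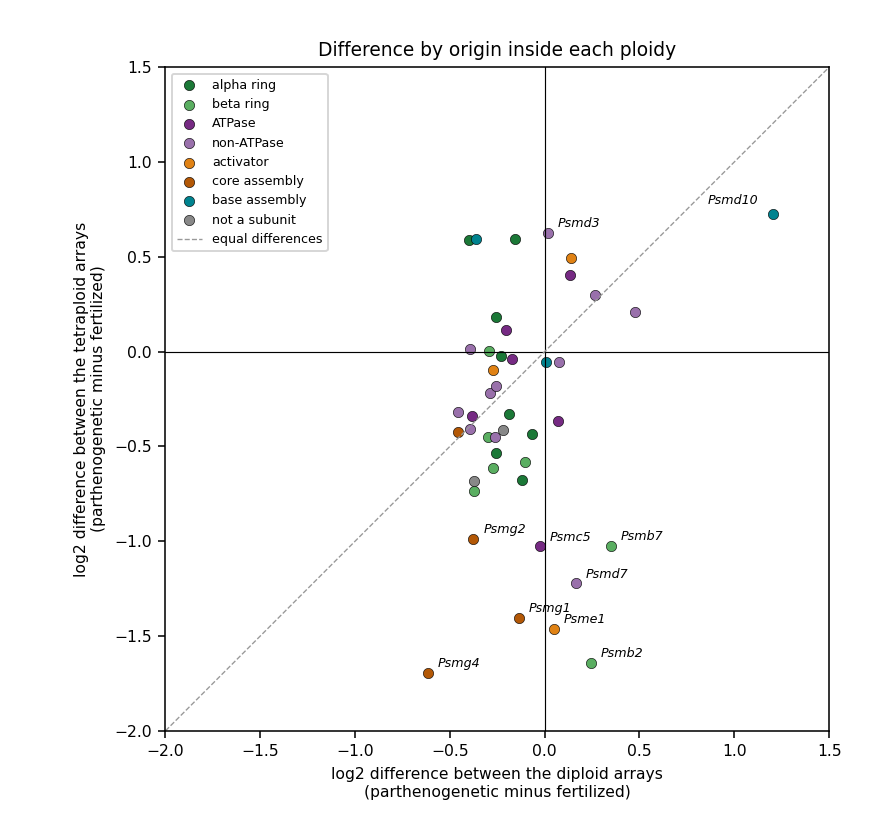
Log2 difference by origin between the diploid arrays (x axis) and between the tetraploid arrays (y axis) for the 44 tested members, coloured by role, with the line of equal differences. Most points lie below 0 on both axes, and 8 genes lie below -0.9 on the y axis, among them Psmg4, Psmb2 and Psme1; the 2 axes share no array.

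The low values gathered on the parthenogenetic tetraploid array. It gave the lowest of the 4 signals for 26 of the 44 tested members (59.1%), and for 30.98% of genes tested. In the beta ring it was the lowest for 6 of 7 genes, and in the core assembly chaperones for 4 of 4. In the regulatory particle it was the lowest for 7 of 17. Low values on it were not particular to the members: it was also the lowest for 18 of 36 companion genes, described below. This is the array with the highest 3' signals of the control genes relative to their middle signals, given above. Its 3' signal divided by its 5' signal did not stand apart, with 127 for Actb, where the other 3 arrays had 108 to 137, and 24.3 for Gapdh, where they had 18.98 to 27.3. On it the summed signals of epiblast markers (3521, against 6217 to 6943 on the other arrays) and of primitive endoderm markers (14514, against 27424 to 30750) were also the lowest. Gene by gene, it was the lowest for 3 of 5 epiblast markers (Fgf4, Nanog and Sox2, but not Pou5f1 or Klf2) and for 5 of 5 primitive endoderm markers. Trophectoderm markers summed to 93608 on it, against 82206 to 88216, and it was the lowest for 2 of 7. The part of RNA quality or of cell composition in the proteasome values was not tested.

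**Figure D4:**
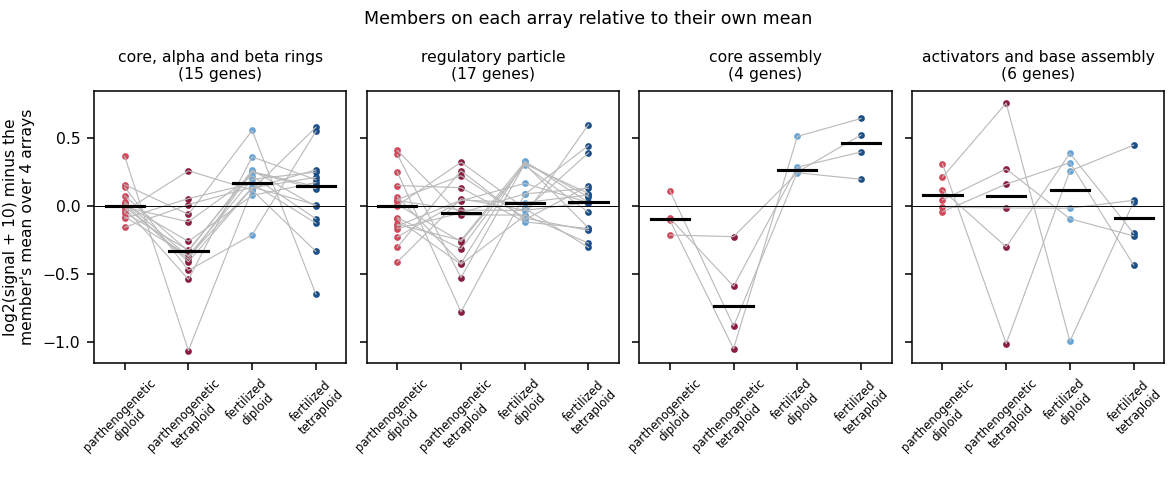
Log2(signal + 10) of each member on each array, minus its own mean over the 4 arrays, for 4 groups of members, with a grey line per gene and a black bar at the median. In the core rings and the core assembly chaperones the parthenogenetic tetraploid array lies lowest, and in the regulatory particle the medians of the 4 arrays lie close to 0.

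Tetraploid and diploid blastocysts were compared with origin as a covariate. Proteasome genes showed no difference that passed the test. The median log2 difference (tetraploid minus diploid) was -0.15 over the 48 members, against -0.05 over genes tested. It was -0.16 in the core, -0.01 in the regulatory particle and -0.23 in activators and assembly factors. By limma 0 of 44 members and 0 of 23746 probe sets (0%) were called. At an unadjusted p under 0.05 there were 3 members (Psmc4, Psmd10 and Psmc3ip) and 1424 probe sets. Both tetraploid signals were below both diploid ones in 9 of 44 members (20.5%), against 17.6% of genes tested, and above in 3 (6.82%), against 13.4%.

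Psmc4, an ATPase subunit, had the lowest adjusted p by ploidy, with signals of 8378 and 4466 in parthenogenetic embryos, and 7986 and 5756 in fertilized ones. Both tetraploid arrays were below both diploid arrays. The difference was -0.69 ± 0.24 (SE), adjusted p 0.745. A dimmer probe set of Psmc4 gave -0.27. Psmc1, another ATPase subunit, had signals of 2585 and 3575 in parthenogenetic embryos, and 3370.2 and 4519 in fertilized ones and was the highest of the regulatory particle by ploidy (0.44 ± 0.25 (SE), adjusted p 0.850), with both tetraploid arrays above both diploid ones. Psmd10 was higher in the tetraploid array of each origin (0.79 ± 0.35 (SE), adjusted p 0.806), yet the parthenogenetic diploid array was above the fertilized tetraploid one. Psmc3ip was lower in the tetraploid array of each origin (-0.74 ± 0.35 (SE), adjusted p 0.825), and its ploidies did not overlap.

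In the core, the 8 alpha ring genes all had negative differences by ploidy, from -0.71 for the dim Psma8 to -0.07 for Psma6, and 0 of them were called. Among all genes tested 54.2% were lower by ploidy. Inside 1 origin the ring was not uniform: 6 of the 8 were lower within parthenogenetic embryos and 6 of 8 within fertilized ones. Within parthenogenetic embryos, 3 of 44 members (6.82%) were at least 2-fold lower in the tetraploid array, Psmb2, Psmd7 and Psme1, against 10.9% of genes tested. Within fertilized embryos the only tested members that differed at least 2-fold were Psma8 (-1.20) and Psmd10 (1.03), against 15.3% of genes tested. Of the 6700 genes past the 75th percentile filter, 413 were at least 2-fold lower in the tetraploid array within parthenogenetic embryos. Within fertilized embryos 124 of those 6700 genes were at least 2-fold lower in the tetraploid array and 139 higher. In the core assembly chaperones the tetraploid minus diploid median was -0.72 within parthenogenetic and 0.12 within fertilized embryos, 1 array a side and with no test.

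Genes that work with the proteasome had differences by origin on both sides of 0. Of 48 listed companions (ubiquitin shuttles, deubiquitinases, the VCP machinery and regulators of subunit genes), 36 were on the array and 34 were tested. Their median was 0.08, with 15 lower and 19 higher, and 0 were called in either direction by origin or by ploidy. The maturation factor Pomp was at 0.20 ± 0.30 (SE), adjusted p 0.858. Sem1, a small lid subunit whose symbol falls outside the naming pattern, was at 0.25 ± 0.24 (SE), adjusted p 0.769. Nfe2l1, the transcription factor that raises subunit genes when proteasome activity is short, was at -0.03 ± 0.42 (SE), adjusted p 0.988. The signals of Nfe2l1 were 1689 and 733 in parthenogenetic embryos, and 906 and 1418 in fertilized ones, with the highest and the lowest value both parthenogenetic. Ngly1, the deglycosylase that processes the Nfe2l1 protein, had signals of 1022 and 1042 in parthenogenetic embryos, and 502 and 426 in fertilized ones and the difference 1.14 ± 0.34 (SE), adjusted p 0.351. The ubiquitin shuttle gene Ubqln2, which is X-linked, had signals of 11273 and 14644 in parthenogenetic embryos, and 5743 and 5357 in fertilized ones and the difference 1.21 ± 0.25 (SE), adjusted p 0.136. Neither Ngly1 nor Ubqln2 overlapped between origins. Psmf1, an inhibitor of the core, was low on the parthenogenetic tetraploid array alone, where it lay below the floor, with 432 and 104 in parthenogenetic embryos, and 468 and 428 in fertilized ones and a difference of -1.03 ± 0.58 (SE), adjusted p 0.619.

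Genes of interferon signalling and antigen presentation were mostly dim. Of 23 listed, 21 were on the array and 13 were tested, with 7 lower, 6 higher, a median of -0.05 and 0 called in either fit. On all 4 arrays 7 of the 21 were above the floor. B2m, the light chain of class I molecules, had signals of 196 and 199.8 in parthenogenetic embryos, and 734 and 555 in fertilized ones, without overlap. Its difference was -1.64 ± 0.40 (SE), with a limma adjusted p of 0.210, the lowest of the 13 tested. Ifngr1 was higher in parthenogenetic embryos without overlap, at 0.95 ± 0.44 (SE) with a limma adjusted p of 0.566. Related genes of the list went the other way. Ifngr2 was lower without overlap (-2.46 ± 1.44 (SE), limma adjusted p 0.629), with both parthenogenetic signals below the floors. Nlrc5 was higher without overlap (1.61 ± 0.71 (SE), limma adjusted p 0.558), with both fertilized signals below the floors.

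Promoter sequences of the members were examined for short sequence motifs. RefSeq promoters (assembly GRCm38.p6, 250 bases before to 50 bases after a start site) were at hand for 40 members, as 43 promoters. The core of the antioxidant response element, bound by Nfe2l1 and Nfe2l2, was searched as TGAC, 3 free bases and GC on both strands. It was present in 6 of 43 member promoters (13.95%) and in 12.39% of all 32851 promoters. The CCAAT box was present in 16 of 43 (37.2%) and in 37.4% of all. The core of the nuclear respiratory factor motif, searched as GCGCA, a free base and GCGC, was present in 7 of 43 (16.3%) and in 4.60% of all. Such a match is a description of letters only. The windows below show antioxidant core matches of Psmb5, Psmb6 and Psmd9, because Psmb5 and Psmb6 encode cutting subunits with lower parthenogenetic signals and Psmd9 carries the same core with overlapping signals. Capitals mark the match, and sequences run 5' to 3' on the gene's strand.
Psmb5, chr14:54618024-54618052, minus strand: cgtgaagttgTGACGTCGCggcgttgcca
Psmb6, chr11:70525338-70525356, plus strand: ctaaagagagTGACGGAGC
Psmd9, chr5:123228149-123228177, plus strand: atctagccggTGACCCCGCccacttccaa

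Respiratory factor matches upstream of the start site are shown for 4 members. Psma3, Psmc5 and Psmd14 had separate origins, while Psmc4 had separate ploidies and overlapping origins. The separation was narrow between the diploid arrays, where Psma3 differed 1.05-fold, Psmc5 1.02-fold and Psmd14 1.19-fold. Psma2 and Psma4, which are not shown, also had an upstream match, and their origins overlapped. Capitals again mark the match, which lies on either strand.
Psma3, chr12:70974535-70974564, plus strand: tatggtttctGCGCACGCGCgctctctgct
Psmc5, chr11:106256126-106256155, plus strand: tttcgcctccGCGCCTGCGCgatagagtga
Psmd14, chr2:61711604-61711633, plus strand: caggcggcctGCGCGTGCGCtgtgtgctcc
Psmc4, chr7:28050242-28050271, minus strand: aagagttactGCGCACGCGCaacatccttg
Of the 6 members with an antioxidant core, 4 had lower and 2 had higher parthenogenetic values, and of the 7 with a respiratory factor core 7 had lower ones, beside 34 of 44 tested members lower in all. No relation between motif and signal was tested.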

How the data were processed

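Signals were read from the series table, where the authors deposited 1 MAS5 intensity per probe set and array on a linear scale; MAS5, without a version, comes from the submitters' processing notes, and other steps are not given in the sources used here. A trimmed mean was 500.0 on all 4 arrays, and that scaling was kept. Genes came from the platform annotation, updated through RefSeq (GRCm38.p6).

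The table's 45101 probe sets include 64 controls. Probe sets at or above the array median on at least 2 arrays (23746) entered a fit of log2(signal + 10) by limma 3.58.1 under R 4.3.3 (lmFit and trended eBayes), which understates differences of dim genes. Adjustment was by Benjamini-Hochberg over all of them, with a threshold of 0.05. Origin was fitted without a ploidy term (2 residual degrees of freedom), ploidy with origin as a covariate (1). The scripts were tested on simulated data.

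Members, classes and lists were chosen with earlier results of these data known. Full values were given for cutting, inducible and tissue-specific subunits, activators, ubiquitin receptors, Psmd14, core assembly chaperones, called members, and the extremes of each class in each fit. Psmb2, Psmc2, Psmc5 and Psmd3, and members given by a difference or a flat level, were named after their values were seen. Alternatives covered the pseudocount, the filter, the scaling, the intensity trend, the block, left-out arrays and the choice of probe set. The number of arrays limits the precision.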

Additional observations from a re-analysis of the deposited data

Results flagged for a closer look

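For 14 of the 44 tested members the parthenogenetic array was above the fertilized one in 1 ploidy and below it in the other. Each ploidy has 1 array a side, and the difference between ploidies was not tested. The values in brackets are the log2 difference by origin between the tetraploid arrays minus that between the diploid arrays. Higher in diploid and lower in tetraploid parthenogenetic embryos were Psmb2 (-1.89), Psme1 (-1.51), Psmd7 (-1.39), Psmb7 (-1.37), Psmc4 (-0.43), Psmd6 (-0.13) and Psmd5 (-0.063). Lower in diploid and higher in tetraploid parthenogenetic embryos were Psma8 (0.99), Psmd9 (0.96), Psma5 (0.75), Psma6 (0.44), Psmd11 (0.41), Psmc6 (0.31) and Psmb3 (0.30). The largest values in size, those of Psmb2, Psme1, Psmd7 and Psmb7, were negative. These 14 are 31.8% of the tested members, and opposite signs were found in 41.6% of genes tested.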

How the results depend on the processing

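Over the alternatives, 0 members were called by ploidy, and 0 by origin except without the parthenogenetic diploid array, where 2 were (range 0 to 2 with an array left out). With ploidy as a replicate block for origin, 142 probe sets and 0 members were called. The deviations of same-ploidy arrays correlated at 0.0028 (Pearson) across probe sets. With 1 array per condition, that value cannot show whether ploidy had an effect shared by both origins. For ploidy without each array there were no residual degrees of freedom, and no count was possible. The medians by origin with an array left out ranged from -0.39 to -0.11 for all members, -0.51 to -0.14 for the core, -0.19 to -0.12 for the regulatory particle and -0.47 to -0.033 for activators and assembly. By ploidy they ranged from -0.28 to -0.12 for the core, -0.092 to -0.071 for the regulatory particle and -0.21 to 0.085 for activators and assembly. Scaling to a common median moved the medians by origin to -0.61, -0.67, -0.51 and -0.63 (all members, core, regulatory, activators and assembly) and that of all genes from 0.02 to -0.30, so the members kept their distance from it. It moved the regulatory median by ploidy to 0.081. Quantile normalization gave -0.18 (regulatory) and -0.25 (activators and assembly) by origin and -0.054 (regulatory) by ploidy. The mean of all probe sets of a gene gave -0.20 (all members) and -0.11 (regulatory) by origin and -0.021 (regulatory) by ploidy. Probe sets with a suffix for shared sequence were left out in an alternative chosen after seeing the data, which gave -0.15 and -0.032 for the regulatory particle by origin and ploidy. In all, 33 of 134 class and count values moved by more than the spread between arrays. Leaving aside the common median, which moves all genes alike, 16 of 25 named and tested members kept their sign by origin under the alternatives run. The cause of these shifts was not tested.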

Other observations

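Psme2, which encodes PA28 beta, the partner of PA28 alpha in the interferon-responsive activator, was not among the members, because its probe set is shared with another gene. The probe set annotated to Psme2 and its copy Psme2b read 319 and 89.8 in parthenogenetic embryos, and 399 and 312 in fertilized ones, diploid first. The parthenogenetic tetraploid array was low, below its floor of 150.3, as it was low for Psme1. The log2 difference by origin was -1.002 ± 0.58 (SE), with a limma adjusted p of 0.629, and the genes cannot be told apart by this probe set.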
